A study of Zea mays with 6 samples.

Results

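The 150 maize leaf genes described here were taken, out of 9280 ranked genes, for the highest level in the third replicate library of both genotypes relative to edf1-D replicate 2 and WT replicate 1. Messenger RNA had been sequenced from leaves of field-grown plants, taken 25 days after germination, in 3 libraries of the edf1-D mutant and 3 of the wild type (WT). Both genotypes were in W22, a maize inbred line, and no treatment is given for either. The sample titles write the mutant as edf-D and the genotype label as edf1-D, and by maize convention the suffix D marks a dominant allele. The labels do not say what the mutation changes, or whether a library came from 1 plant or a pool, so the spread between libraries may be partly technical.

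The members were chosen on measured values. Transcript values, taken as FPKM (fragments normalised for transcript length and library size), were summed to 44303 genes. Of these, 18719 reached 0.5 FPKM in 3 or more libraries. They were numbered in the order of their IDs, and the last 537 in that order were left out by the rule. A mean of at least 5 FPKM left 9280 ranked genes. Each received a gap on the log2(FPKM + 1) scale: the lower of edf1-D replicate 3 and WT replicate 3, minus the higher of edf1-D replicate 2 and WT replicate 1. The 150 genes with the largest gap are the members. Edf1-D replicate 2 and WT replicate 1 are called the low libraries hereafter. The gap used 4 libraries and left edf1-D replicate 1 and WT replicate 2 free. The gap itself is therefore a description with no test.

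FPKM is a relative measure, in which a gene's value falls when other transcripts take a larger part of the reads. Most messenger RNA of a maize leaf comes from mesophyll and bundle sheath cells, which divide the steps of carbon fixation between them, and the leaf also holds epidermal, vascular and guard cells. In bulk leaves a lower value can come from fewer cells of a type or from less RNA per cell, and these cannot be told apart. The tables give no gene names, and 0 of the gene IDs were found in the RefSeq gene table of B73, the maize reference line. No member is therefore given a name, a role or a sequence, the leaf could not be checked against marker genes, and most members are described by their rank in the gap.

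Values above those of the low libraries were rare in the third replicates. The third replicates had the smallest FPKM sums, 472269 for edf1-D and 416517 for WT. The other 4 libraries had sums of 552924 to 686251, with the highest in edf1-D replicate 2. Across the ranked genes the median gap was -0.65, and only 99 genes, 1.07%, had a gap above 0. The opposite gap, both low libraries above both of the third replicates, was positive in 4966 ranked genes (53.5%). Both counts hold for the deposited values and changed with the scaling, as given below.

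All 99 genes with a positive gap were members, and the other 51 members had gaps from 0 down to -0.04. A gap of at least 2 was held by 7 members, one of at least 1 by 13, and one of at least 0.5 by 20. In the remaining 79 members with a positive gap it stayed under 0.5. The last member had a gap of -0.045 and the first gene left out one of -0.046, so the values on both sides of the limit were nearly the same. The median gap of the members was 0.03.

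**Figure D1:**
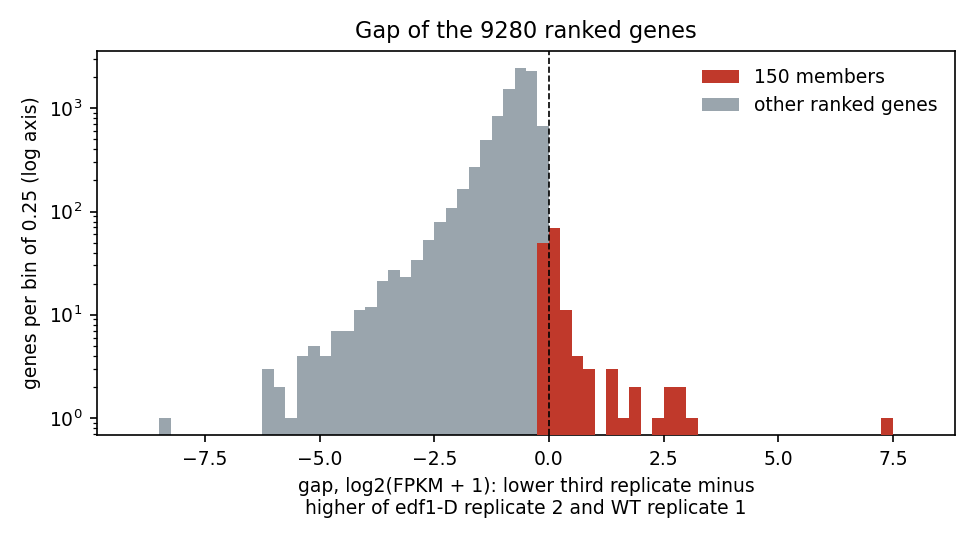
Number of ranked genes (y axis, log scale) by gap (x axis, log2 scale, bins of 0.25). Red bars are the 150 members and grey bars the other ranked genes. The bulk lies below 0, with a median of -0.65, and the members form the right-hand tail, with 1 gene at 7.47.

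The largest gap, 7.47, belonged to Zm00001eb262370, a gene with 1 annotated transcript. It stood at 96.8 FPKM in edf1-D replicate 1, was listed at 0 in edf1-D replicate 2, and stood at 176 FPKM in edf1-D replicate 3. In WT it was listed at 0 in replicate 1, and stood at 74.4 FPKM in replicate 2 and 226 FPKM in replicate 3. The order was the same in both genotypes, with 1 library at 0, 1 intermediate and the third replicate highest, and the genotypes overlapped.

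Zm00001eb290540, also with 1 annotated transcript, had the second largest gap, 3.23, and followed another order. Its edf1-D values were 11.1 FPKM in replicate 1, a listed 0 in replicate 2 and 8.38 FPKM in replicate 3. In WT it was listed at 0 in replicate 1 and stood at 25.4 FPKM in replicate 2 and 9.83 FPKM in replicate 3. Here the low libraries stood apart from all the others, and the third replicates were not the highest.

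These 2 forms recurred down the list. The member with the third largest gap had 22.7, 1.13 and 20.3 FPKM in edf1-D replicates 1 to 3 and 2.10, 43.4 and 39.3 FPKM in WT replicates 1 to 3, so within each genotype the low library stood far below the other 2. The fourth had 21.9, 0 and 5.82 FPKM in edf1-D and 0, 17.2 and 5.81 FPKM in WT, again with the third replicates below the libraries that the gap did not use. The fifth had 6.05, 0.36 and 18.9 FPKM in edf1-D and 2.01, 7.89 and 22.3 FPKM in WT, a stepwise order that ended in the third replicates.

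The sixth was high in the third replicates alone. It had 0, 0.55 and 51.1 FPKM in edf1-D replicates 1 to 3 and 7.43, 0 and 92.9 FPKM in WT replicates 1 to 3. The seventh had 6.73, 2.51 and 21.7 FPKM in edf1-D and 3.71, 8.13 and 21.5 FPKM in WT. In both of these genes the third replicates were above every other library.

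The most abundant member, at rank 12 by gap, had 87.5, 30.2 and 166 FPKM in edf1-D replicates 1 to 3 and 65.9, 85.8 and 229.8 FPKM in WT replicates 1 to 3. It averaged 94.6 ± 68.3 FPKM in edf1-D and 127 ± 89.5 FPKM in WT (SD, n = 3 each). The spread inside each genotype was larger than the difference between their means.

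**Figure D2:**
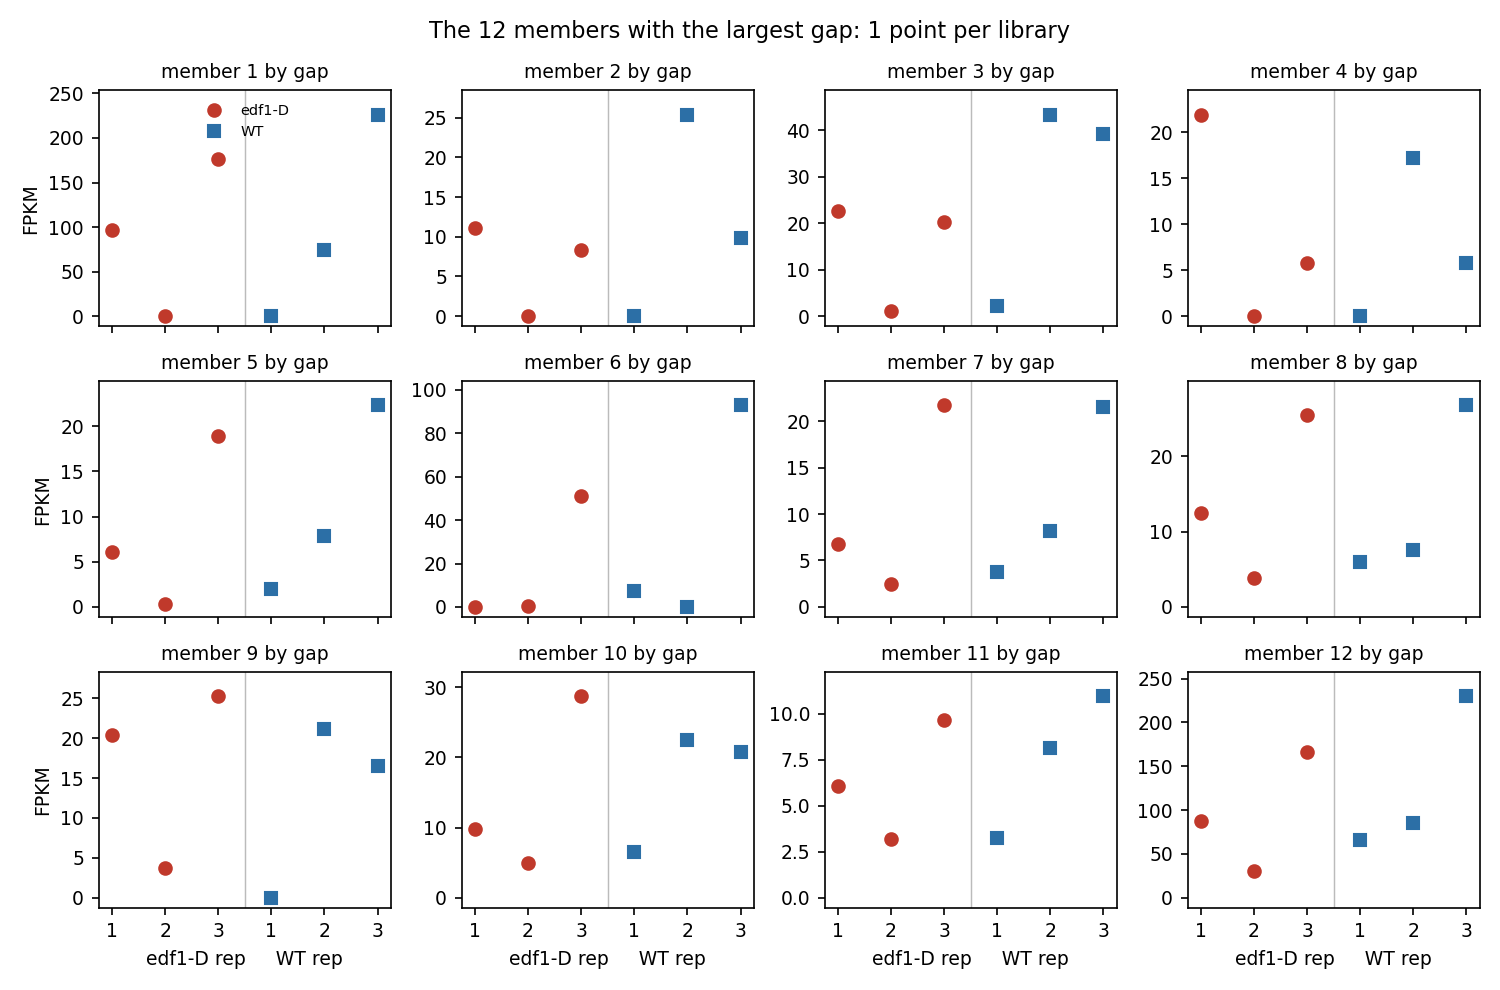
FPKM (y axis, linear, own range in each panel) in the 6 libraries for the 12 members with the largest gap, 1 point per library, with edf1-D replicates 1 to 3 as red circles left of WT replicates 1 to 3 as blue squares. In the first panel edf1-D replicate 2 and WT replicate 1 lie at 0 while the third replicates reach 176 and 226 FPKM, and in the second panel WT replicate 2 is the highest point at 25.4 FPKM.

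Exact zeros were found in 6 members. A 0 in both low libraries and in no other was listed for 3 of them, at ranks 1, 2 and 4. These were also all the ranked genes with that pattern. The opposite pattern, a 0 in both of the third replicates and in no other library, was listed for 3 ranked genes. A listed 0 may be an estimate that failed, and the number of reads is unknown, so the zeros do not show that a transcript was absent.

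On the deposited values most members were not highest in the third replicates, while most were lowest in the low libraries. The third replicate was the highest library of its genotype in 41 of 150 members in edf1-D (27.3%, against 2.91% of ranked genes). In WT it was the highest in 37 (24.7%, against 2.09%), and in 20 members it was so in both genotypes (13.3%, against 0.302%). Edf1-D replicate 2 and WT replicate 1 were both the lowest of their genotype in 104 members (69.3%, against 1.95%). These counts share the third replicates and the low libraries with the rule, so no test was made of them. They also hold for the deposited values only: under 3 scalings that make the libraries' sums, typical genes or whole distributions equal (TPM, median-ratio scaling and quantile normalization), replicate 3 was the highest in both genotypes in 90 to 96 members. Among ranked genes replicate 3 was then the highest in both genotypes in 12.2% to 18.6%.

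On the deposited values the libraries that the gap did not use lay above the third replicates in most members, as they did in most ranked genes. In edf1-D, replicate 1 was above replicates 2 and 3 in 105 members, between them in 31 and below both in 14. In WT, replicate 2 was above replicates 1 and 3 in 113 members, between them in 27 and below both in 10. The free library was above both others in both genotypes in 88 members. Among ranked genes the free library was above the third replicate in 87.6% in edf1-D, 94.2% in WT and 83.1% in both, against 70.0%, 75.3% and 58.7% of members. In TPM it was above the third replicate in 33.3% of members in edf1-D and 14.7% in WT, after median-ratio scaling in 28.7% and 14.0%, and after quantile normalization in 31.3% and 13.3% of members. The ranked genes then had it above the third replicate in 45.8% to 53.0%.

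These places were also counted by rank in the gap, with no test. Among the 25 with the largest gap, from 7.47 to 0.39, edf1-D replicate 1 lay between the other edf1-D libraries in 14 and WT replicate 2 between the other WT libraries in 14. Among members 26 to 99 the counts were 13 and 10 of 74, and among members 100 to 150 they were 4 and 3 of 51. From member 26 on the gap was at most 0.34, so the lower of the third replicates lay close to the higher of the low libraries. That leaves less room for a library in between, so the fall in these counts is partly built in. No share over ranked genes stands beside them. Over all members the median difference was 0.15 on the log2(FPKM + 1) scale between edf1-D replicates 3 and 2, and 0.20 between WT replicates 3 and 1. The same medians over ranked genes were -0.37 and -0.31.

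**Figure D3:**
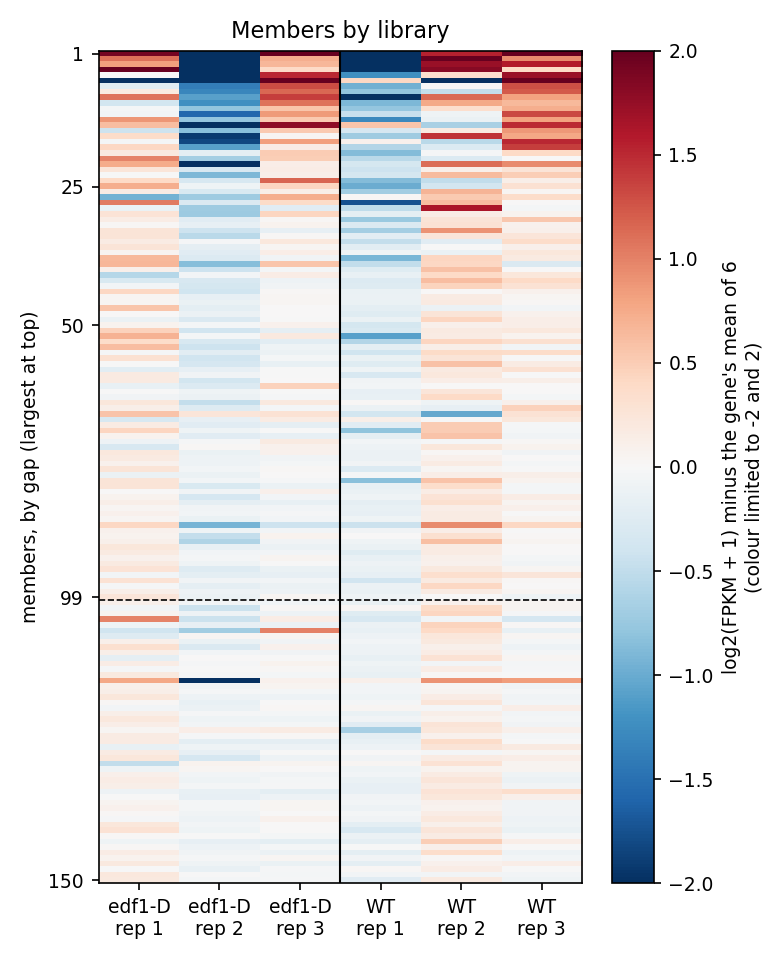
Log2(FPKM + 1) minus the gene's mean over the 6 libraries (colour, limited to -2 and 2) for the 150 members, ordered by gap from the top, with edf1-D libraries left of WT libraries. The dashed line follows member 99, the last with a gap above 0. The blue of edf1-D replicate 2 and WT replicate 1 is strongest among about the first 25 members and mostly pale below. Exceptions include WT replicate 1 of member 28 (1.35 FPKM) and edf1-D replicate 2 of member 114 (1.13 FPKM).

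How high the third replicates stood depended on the scaling of the libraries. When each library was rescaled to the same sum (TPM), the third replicate was the highest of its genotype in 100 members in edf1-D and in 128 in WT, against 3616 and 3594 of the 9280 ranked genes. With median-ratio scaling, which sets the typical gene equal between libraries, these counts were 107 and 129, and with quantile normalization they were 103 and 130. Among ranked genes the shares were 34.2% and 26.8% after median-ratio scaling, and 34.4% and 33.7% after quantile normalization. After each of these scalings all 150 members had a gap above 0. They were then part of 2774 ranked genes with such a gap in TPM, 1208 after median-ratio scaling and 1668 after quantile normalization. The opposite gap, positive in 4966 ranked genes as deposited, was so in 735, 1725 and 1345 under these scalings, in the same order. A positive gap is therefore rare on the deposited scale and frequent on the others.

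The level of the members relative to other genes of the same library moved less with the scaling. For TPM and median-ratio scaling this is arithmetic. Both multiply a whole library by 1 factor, so only the 1 added before the logarithm can shift these distances. On the deposited values their median lay below that of the ranked genes by 0.60, 1.28 and 0.46 on the log2(FPKM + 1) scale in edf1-D replicates 1 to 3, and by 1.19, 0.84 and 0.46 in WT replicates 1 to 3. In TPM the distances were 0.62, 1.32 and 0.48 in edf1-D and 1.24, 0.87 and 0.48 in WT. The members thus came closest to the other genes in the third replicates and were farthest in edf1-D replicate 2 and WT replicate 1. The rule chose the members on these 4 libraries, so this order was built in. Both libraries that the gap did not use lay in between, under the deposited values and the 3 scalings. Choosing genes on the other 4 libraries favours the ends for those 4, so nothing is read from this place. Of all FPKM of a library, the members held 0.389%, 0.204% and 0.486% in edf1-D replicates 1 to 3 and 0.240%, 0.398% and 0.622% in WT replicates 1 to 3.

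**Figure D4:**
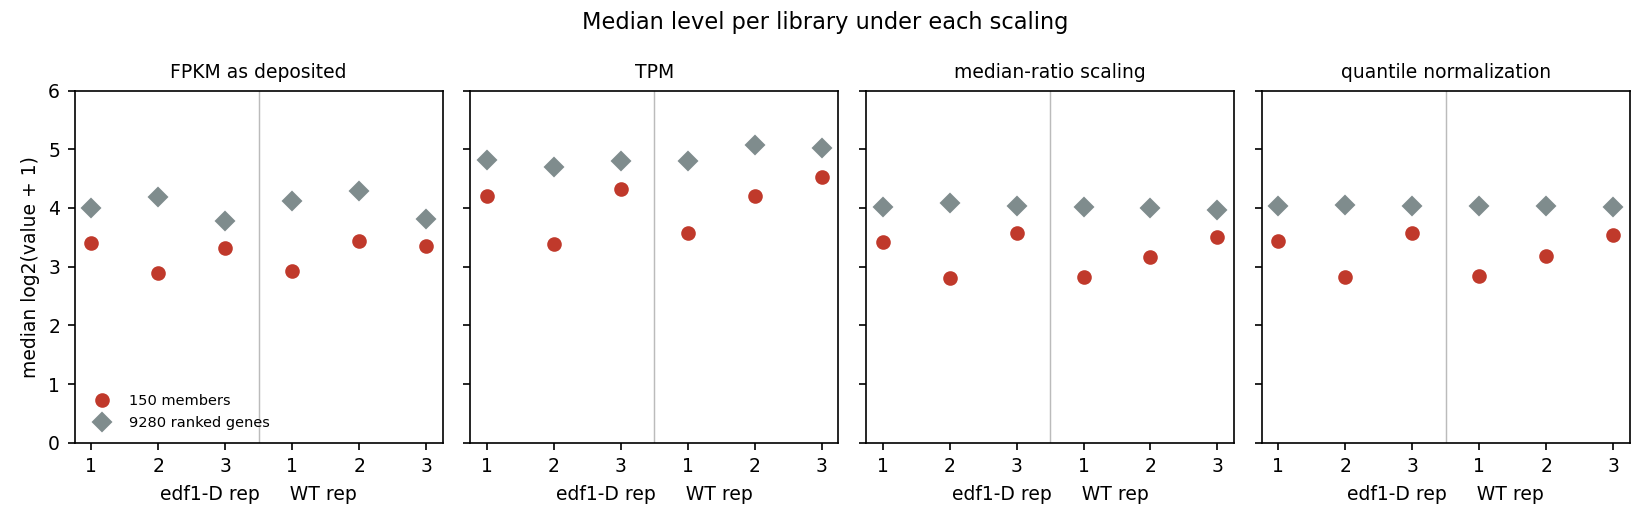
Median log2(value + 1) of the 150 members (red circles) and of the 9280 ranked genes (grey diamonds) in edf1-D replicates 1 to 3 and WT replicates 1 to 3, under 4 scalings. On the deposited values the ranked genes dip in the third replicates, to 3.78 in edf1-D and 3.81 in WT, and the members do not. After median-ratio scaling and quantile normalization the grey points are nearly level, and the members are highest in the third replicates.

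Members were genes of modest abundance. Their mean over the 6 libraries had a median of 8.66 FPKM, against 15.6 FPKM for the ranked genes, and ran from 5.04 to 111 FPKM. A mean under 10 FPKM was found in 91 members (60.7%, against 31.8% of ranked genes), and one of 50 FPKM or more in 5 (3.33%, against 17.8%). The part of abundance in the choice of members was not tested.

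Single-transcript genes were as frequent among the members as among the ranked genes, and their number varied along the list. A single transcript was annotated for 57 members (38.0%), against 38.1% of ranked genes. The 13 members with a gap of at least 1 included 11 such genes (84.6%). Members 26 to 99 included 24 of 74 (32.4%) and members 100 to 150 included 14 of 51 (27.5%). In the 150 genes with the largest opposite gap, which had lower values in the third replicates than in the low libraries, 111 had a single transcript (74.0%).

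In members with several transcripts the gap was also computed for each isoform. Of the 93 members with 2 or more annotated transcripts, 44 had 2 or more with a mean of at least 1 FPKM, and 23 of those had a gene-level gap above 0. Every such transcript had a positive gap of its own in 1 of the 23, some but not every one in 16, and none in 6. The 1 with every transcript positive was the member at rank 11 by gap, with transcript gaps of 0.11 and 2.45. Its first transcript had 3.54, 3.03 and 3.55 FPKM in edf1-D replicates 1 to 3 and 3.23, 3.19 and 5.66 FPKM in WT replicates 1 to 3. Its second had 2.51, 0.15 and 6.09 FPKM in edf1-D and 0, 4.96 and 5.28 FPKM in WT, so the third replicates lay above the low libraries narrowly in the first transcript and clearly in the second. The values of isoforms from short reads are less certain than gene totals. No count over ranked genes stands beside these, so they are not read as particular to the members.

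The leading transcript was one and the same in all 6 libraries in 69 of the 90 members with several transcripts and at least 1 FPKM in every library (76.7%, against 85.3% of 5712 ranked genes). With at least 5 FPKM in every library it was 51 of 60 (85.0%, against 87.2%). A leading transcript shared by the third replicates and another shared by the 2 low libraries was found in 1 of the 90 members, against 1.16% of ranked genes.

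The members were spread over the order of gene IDs, which the files do not tie to positions. When this order was cut into 10 equal parts they made up between 1.08% and 2.01% of ranked genes. Another member lay within 10 ranks for 21 members (14.0%), against 24 (16.0%) in the 150 genes with the largest opposite gap. These 21 formed 10 runs, 1 of 3 members and 9 of 2. No share for genes placed at random in this order stands beside these, so the runs are not read as a clustering of members.

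The run of 3 lay at ranks 1681 to 1689 and held the members ranked 10, 8 and 14 by gap. At rank 1687 the values were 12.4, 3.81 and 25.4 FPKM in edf1-D replicates 1 to 3 and 5.91, 7.56 and 26.8 FPKM in WT replicates 1 to 3. At rank 1689 they were 20.7, 0 and 48.0 FPKM in edf1-D and 19.7, 7.95 and 38.8 FPKM in WT. In both genes the third replicates were the highest libraries.

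The 6 genes between these members had means of 0.918 to 4.96 FPKM, under the minimum of the rule, which therefore could not take them. Of the 6, 4 also had a gap above 0, where 5.79% of the 8902 genes with a mean under 5 FPKM did. The gene at rank 1686 had 1.93, 0 and 11.1 FPKM in edf1-D replicates 1 to 3 and 0, 0 and 16.7 FPKM in WT replicates 1 to 3. The 9 runs of 2 members held 29 genes in between, in 7 of the runs, and 1 of these 29 had a gap above 0. It lay in the run at ranks 1653 to 1659, with a gap of 0.15. In 6 of the 9 genes of the run of 3 the third replicates were both the highest library of their genotype. The run of 3 was picked out after its values had been seen. Reads of near-identical neighbours may be split between IDs, and whether these genes are such copies was not tested.

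**Figure D5:**
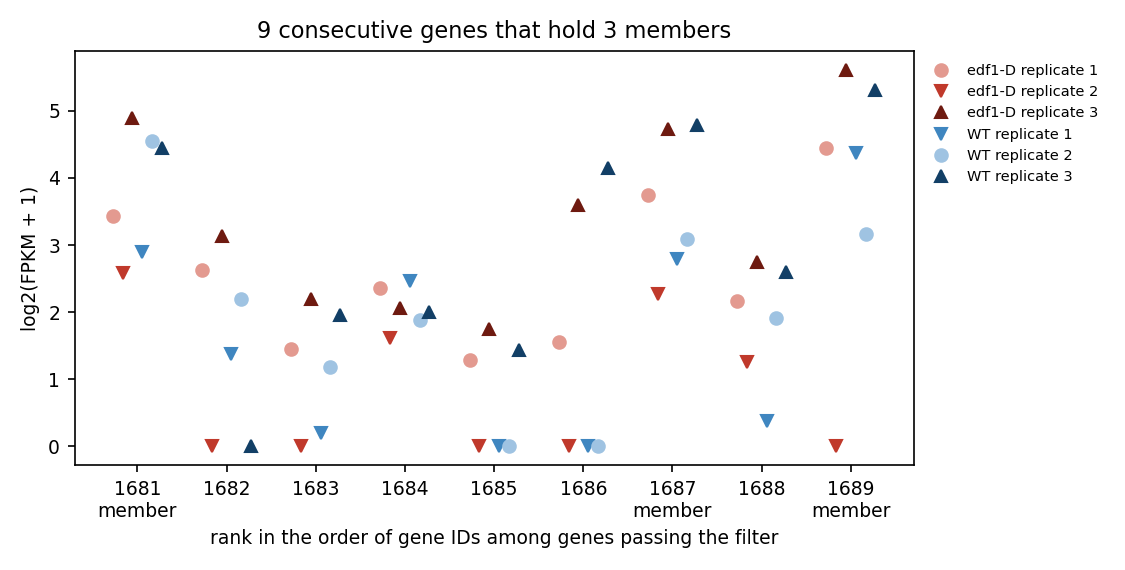
Log2(FPKM + 1) (y axis) of 9 consecutive genes in ID order (x axis, rank among genes passing the filter), 1 point per library, red for edf1-D and blue for WT. Upward triangles are the third replicates, downward triangles edf1-D replicate 2 and WT replicate 1, and circles the libraries that the gap did not use. The upward triangles are the top points at ranks 1683, 1685, 1686, 1687, 1688 and 1689.

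The comparison the study was designed for, edf1-D against WT, called no member, and the rule leaves little room for a call. Of the 150 members, 0 passed (limma on log2(FPKM + 1), Benjamini-Hochberg adjusted p under 0.05 over all tested genes), against 3.64% of the 18719 tested genes and 3.12% of the ranked genes. An unadjusted p under 0.05 was reached by 0 members, against 18.8% of ranked genes. A gene in which the third replicates both exceed edf1-D replicate 2 and WT replicate 1 has overlapping genotypes by construction, which holds for 99 of the members, so nothing is read from these counts. Genotypes without overlap were found in 4 members, all among the 51 without a positive gap, against 25.4% of ranked genes.

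The sizes of the genotype differences were as follows. The log2 difference of edf1-D minus WT had a median of -0.04 over the members, against -0.08 over the ranked genes. It was above 0 in 56 members (37.3%, against 40.7% of ranked genes). After median-ratio scaling the members' median was 0.09 and 100 members were above 0, while in TPM it was -0.14 with 27 above 0. The sign of the median thus depended on the scaling. No share of other genes stands beside these 2 counts. The median over all tested genes moved as well, from -0.117 to -0.006 after median-ratio scaling and -0.224 in TPM. The shifts were therefore not particular to the members. The smallest adjusted p among the members was 0.263 (limma), with a log2 difference of 0.73 ± 0.32 (SE), for the member at rank 66 by gap. It had 7.45, 5.72 and 5.99 FPKM in edf1-D replicates 1 to 3 and 3.43, 1.80 and 5.97 FPKM in WT replicates 1 to 3, so 1 WT library lay among the edf1-D libraries.

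The widest difference downwards, -1.22 ± 0.78 (SE; limma adjusted p = 0.442), was that of the member at rank 114 by gap. It had 22.5, 1.13 and 13.5 FPKM in edf1-D replicates 1 to 3 and 13.7, 24.6 and 23.5 FPKM in WT replicates 1 to 3, so edf1-D replicate 2 alone stood far below the others. The widest upwards, 0.93 ± 1.16 (SE; limma adjusted p = 0.708), was that of the member at rank 9. It had 20.4, 3.76 and 25.2 FPKM in edf1-D and 0, 21.1 and 16.6 FPKM in WT, with 1 low library in each genotype.

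The genotypes were also set side by side library by library. The difference of edf1-D minus WT between the third replicates had a median of -0.04 on the log2 scale over the members, from -1.24 to 1.16, and of -0.04 over the ranked genes. Between edf1-D replicate 2 and WT replicate 1 the median was -0.01 over the members, from -4.37 to 2.25, and 0.03 over the ranked genes. Between edf1-D replicate 1 and WT replicate 2 it was -0.08 over the members, from -1.77 to 1.59, and -0.24 over the ranked genes. Members went both ways in each pair, with 56, 69 and 59 of 150 above 0 in these pairs. Each of these sets 1 library against another and has no replicate check. When edf1-D replicate 2 and WT replicate 1 were left out, a choice made after seeing the data, 0 members passed the limma test, against 4.14% of ranked genes. An unadjusted p under 0.05 was then reached by 8 members, against 15.4% of ranked genes. The third replicates, on which the members were chosen, stayed in this test, so nothing is read from these counts either.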

How the data were processed

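The deposited files hold 1 value per transcript and library for 77341 transcripts, on gene models with IDs beginning Zm00001eb. Their unit is not stated. The deposited values were taken to be FPKM, since they have decimals and column sums that differ and stay under 1000000, as whole counts or complete TPM would not. Per the submitters' processing notes, which give no roles, Trimmomatic 0.36, HISAT2, RSEM and DESeq2 were used. A genome build is not given in these sources, nor whether strand was kept, so antisense genes may share reads. Depth is unknown: low values were searched for steps of single reads, and at the best shift 8.7% to 9.5% of ratios to WT replicate 1 lay within 1.0% of ratios of small whole numbers, against 7.3% to 7.6% at a typical shift.

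Gene sums, the gap rule and all counts were computed in Python 3.11.15. Genotypes were compared with limma 3.58.1 in R 4.3.3 (intensity trend, pseudocount 1, no covariate, two-sided), checked on simulated data. Fold changes on this scale understate those of low genes. Pearson's r between libraries ran from 0.917 to 0.978, across genes. The members and lists were chosen with earlier results of these data known. By ID, the 2 members with the largest gap are named, and called members would have been. The 11 gene lists planned need names, so 0 were used. Alternatives were scaling, pseudocount, filters, left-out libraries and the replicate block.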

Additional observations from a re-analysis of the deposited data

How the results depend on the processing

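The choice of members depended on the scaling and the filter. Of the 150, 149 were taken again with a pseudocount of 0.1, 120 after median-ratio scaling, 114 after quantile normalization, 99 in TPM and 36 with a minimum mean of 1 FPKM, which admits more low genes. The 25 with the largest gap were taken again in each of these 5 settings. Counts of members with replicate 3 as the highest of its genotype, 41 in edf1-D, 37 in WT and 20 in both, became 100, 128 and 90 in TPM, 107, 129 and 96 after median-ratio scaling, and 103, 130 and 94 after quantile normalization. These scalings raise the third replicates as a whole. Among ranked genes replicate 3 was the highest in both genotypes in 0.302% as reported and 18.6% in TPM. After median-ratio scaling that share was 12.2%, and after quantile normalization 15.1%. Both low libraries were lowest in 104 members as reported and in 104 to 140 under the 4 alternatives. The share of ranked genes moved more. It was 1.95% as reported, 1.94% with a pseudocount of 0.1, 43.3% in TPM, 13.2% after median-ratio scaling and 20.5% after quantile normalization. On a scale with 0 at the mean of the low libraries and 1 at that of the third replicates, the median member lay at 1.32 in edf1-D replicate 1 and, for WT replicate 2, at 1.77. These medians were 0.716 and 0.768 in TPM and 0.839 and 0.359 after median-ratio scaling. On the deposited values the quartiles were 0.69 and 2.78 for edf1-D replicate 1, and 0.98 and 3.13 for WT replicate 2. Where the third replicates and the low libraries nearly coincide, the divisor of this scale is close to 0 or below it. Such places are unstable. The share with 1 leading transcript, 76.7%, was 85.0% with at least 5 FPKM in every library, over fewer genes. No member passed the genotype test (0 higher, 0 lower) in any of the 13 alternatives, which included each library left out in turn. Over all tested genes these alternatives called from 292, without edf1-D replicate 1, to 2185, after median-ratio scaling. The smallest adjusted p of a member was 0.0795, without edf1-D replicate 3. The replicate block gave 0 members at an adjusted p under 0.05, against 951 of 18719 tested genes, and 4 at an unadjusted one. With all 6 libraries the rule makes the genotypes overlap in 99 members. Every alternative also kept libraries that the rule used, so nothing is read from these counts. Whether the replicate numbers pair the libraries is not given: deviations from the group means correlated across genes at -0.192, -0.009 and 0.352 for equal numbers. Across numbers, edf1-D replicate 2 gave 0.36 with WT replicate 1 and -0.39 with WT replicate 3. The unknown depth limits members near 0.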
